A study of Mus musculus with 8 samples.

Results

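The 3 paralogous microRNA clusters that each carry a miR-99/100, a let-7 and a miR-125 precursor were examined in myoblasts, the dividing cells from which muscle fibres form, taken from old mice and from young mice. The members were taken by precursor name: mmu-mir-99a, mmu-let-7c-1 and mmu-mir-125b-2 in the first cluster, mmu-mir-100, mmu-let-7a-2 and mmu-mir-125b-1 in the next, and mmu-mir-99b, mmu-let-7e and mmu-mir-125a in the last (the mouse prefix mmu is left out from here on). These are 9 of the 1181 precursors measured, and all 9 were above 0 in all 8 libraries. Small RNA was sequenced on an Illumina GAIIx from old and young C57BL/6J mice, with 4 libraries in each group. The labels number them (old 1 to old 4, young 1 to young 4), and each number was taken as 1 mouse. The labels name no treatment and no genetic change in either group and give no age beyond old or young, nor the muscle or the way in which the cells were obtained. The values are log2 abundances per precursor and behave like RPKM (reads counted per kilobase of hairpin and scaled by the size of the library), so that levels of different precursors are compared per length and 1 unit is a doubling. Both arms of a hairpin are counted in 1 value.

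A precursor hairpin is cut by Drosha and Dicer into a mature miRNA of which the seed, bases 2 to 8, chooses the target messages. The genes of such a cluster are made as parts of a shared primary transcript and can then be processed at different rates. let-7 miRNAs accumulate as cells differentiate and their processing is blocked by LIN28. miR-125 is the vertebrate relative of the worm timing gene lin-4, and miR-125b has been studied in myoblasts as a brake on IGF2 and differentiation. miR-99 and miR-100 are known regulators of mTOR and IGF receptor signalling.

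The mature sequences are shown because the precursors fall into seed families that cut across the clusters, and because copies with the same letters share reads. They are the 5p sequences from RefSeq (GRCm38.p6, the build of mm10), 5′ to 3′, with the seed in capitals. All 9 members were matched by name. The let-7a letters are those listed under let-7a-1, and they were found in the let-7a-2 hairpin too.
miR-99a-5p: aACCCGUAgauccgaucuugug
miR-100-5p: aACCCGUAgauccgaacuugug
miR-99b-5p: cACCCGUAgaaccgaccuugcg
let-7c-5p: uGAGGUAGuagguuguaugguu
let-7a-5p: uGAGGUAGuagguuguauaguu
let-7e-5p: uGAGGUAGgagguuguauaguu
miR-125b-5p: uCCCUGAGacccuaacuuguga
miR-125a-5p: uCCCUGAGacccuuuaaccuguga

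Counted from the 5′ end, miR-100 differs from miR-99a by U16A alone, let-7a from let-7c by G19A alone and let-7e from let-7a by U9G alone. miR-99b differs from miR-99a at 4 positions (A1C, U11A, U16C and U21C). miR-125a differs from miR-125b at 7 of the first 22 positions, aligned without gaps. mir-125b-1 and mir-125b-2 give the same 5p sequence and are told apart by their 3p arms, also shown with bases 2 to 8 in capitals.
miR-125b-1-3p: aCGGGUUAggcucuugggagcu
miR-125b-2-3p: aCAAGUCAgguucuugggaccu

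The mir-99a cluster lies at chr16:77598936-77646343 (mm10, plus strand) in introns of the noncoding host gene Mir99ahg. mir-99a (chr16:77598936-77599000) and let-7c-1 (chr16:77599657-77599750) start 721 bases apart, and mir-125b-2 (chr16:77646273-77646343) starts 46616 bases after let-7c-1. The mir-100 cluster at chr9:41531425-41582002 has the same form, with mir-100 (chr9:41531425-41531504), let-7a-2 (chr9:41536716-41536811) and, 45210 bases further on, mir-125b-1 (chr9:41581926-41582002). Its members lie in introns of the noncoding gene 3110039I08Rik. The mir-99b cluster is compact, with mir-99b (chr17:17830188-17830257), let-7e (chr17:17830352-17830444) and mir-125a (chr17:17830812-17830879) within 692 bases of the protein-coding gene Spaca6. mir-99b and let-7e are intronic there, while mir-125a overlaps an exon of a Spaca6 transcript.

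Read as above, the library sizes were 25.0 to 27.9 M reads in old and 29.9 to 39.4 M in young libraries, so that every young library was larger than every old one, and depth and age cannot be told apart. The least abundant member, mir-99a, still rested on 3410 reads or more in every library, and mir-99b reached 2210000. Of 9 muscle markers 6 passed the filter on low values (a linear value of 10 or more in 4 or more libraries): mir-206 measured 14.78 to 16.52 and mir-133a-1 11.91 to 14.92 over the 8 libraries, while mir-499 ran from 0.36 to 5.42. The 3 that did not pass, mir-1a-1, mir-1a-2 and mir-1b, had means of 2.16, 1.79 and 1.88. Of the blood markers mir-144 and mir-223 were at 0 in all libraries and mir-451a in 7 of 8, whereas mir-150 was above 0 in all 8, at 3.05 to 4.47 in old and 1.04 to 4.32 in young ones. The endothelial mir-126a and mir-126b lay between 2.96 and 5.43, the epithelial mir-205 between 4.78 and 8.02, the other 5 epithelial precursors at 2.89 or less and 3 neural mir-9 precursors at 2.21 or less. Fibroblast and smooth muscle markers were all above 0, their 6 precursors summing to 0.587% to 0.955% of the linear values in old and 0.292% to 0.704% in young libraries. On the log2 scale these sums were 15.39 to 15.87 in old and 14.62 to 15.68 in young libraries, near the level of mir-206 alone. The like sum over the 9 muscle markers was 21.11 to 21.76 in old and 20.33 to 22.14 in young libraries, and mir-486 among them had a mean of 21.35. Of the fibroblast and smooth muscle precursors, mir-143 was the most abundant, with a mean of 14.99. All 6 of these had higher means in old libraries, by 0.26 to 0.45, against 46% of all 359 precursors. None passed the test (limma, adjusted p = 0.995). Old 4 and young 4 were the 2 highest libraries for 6 of the 9 members. The members' differences and correlations are given with and without them. The libraries did not group by age alone. Old 3 had Spearman correlations of 0.973, 0.954 and 0.977 with young 1 to young 3, against 0.893 to 0.911 with the other old libraries. Young 4 correlated at 0.894 to 0.958 with the old libraries, against 0.863 to 0.907 with the other young ones. The limma counts without old 3 and without young 4 are given at the end.

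The miR-99/100 family held both the most and the least abundant member. mir-99b had the third highest mean of the 359 precursors compared, after mir-3107 and mir-486, which list the same reads. It stood at 19.04, 18.63, 18.96 and 20.02 across old 1 to old 4, while young 1 to young 4 gave 19.24, 18.36, 18.43 and 19.61. Old 4 and young 4 were the highest of their groups, and the groups overlapped. mir-100, which differs from miR-99a in a single mature base, was found at 14.97, 14.49, 14.63 and 15.86 in the old libraries, with 14.86, 14.69, 13.93 and 15.58 in the young ones. mir-99a was found at 11.18, 10.98, 11.72 and 12.71 in the old libraries, with 11.56, 11.26, 11.12 and 12.27 in the young ones. In all 3 members old 4 was the highest library and young 4 the next. By itself mir-99b made up 4.51% (young 2) to 12.8% (old 4) of the summed linear values of a library, with mir-3107 left out of the sum because it repeats the reads of mir-486.

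The let-7 members lay closer together. let-7c-1 stood at 14.79, 15.10, 14.74 and 15.32 across old 1 to old 4, while young 1 to young 4 gave 14.43, 14.46, 14.77 and 15.43. let-7a-2 was found at 13.36, 13.68, 13.22 and 13.95 in the old libraries, with 12.80, 13.12, 13.35 and 14.21 in the young ones. let-7e was found at 13.33, 13.66, 13.19 and 13.53 in the old libraries, with 12.85, 12.76, 13.14 and 13.97 in the young ones. In each of them young 4 was the highest library, young 1 or young 2 was the lowest, and the groups overlapped. The level of a single locus cannot be read for let-7a-2 and let-7c-1. let-7a-2 differed from let-7a-1 on chromosome 13 by between -0.04 and -0.02 throughout, where their lengths alone give -0.03, and let-7c-1 differed from let-7c-2 on chromosome 15 by between 0 and 0.02, where lengths alone give 0.02. The same reads were thus in effect listed under both copies.

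The miR-125 members came next after mir-99b in abundance. mir-125a stood at 16.99, 16.75, 16.66 and 16.93 across old 1 to old 4, while young 1 to young 4 gave 17.04, 17.23, 16.47 and 17.87. mir-125b-1 was found at 16.45, 17.07, 16.66 and 17.27 in the old libraries, with 16.25, 17.43, 16.28 and 17.59 in the young ones. mir-125b-2 was found at 16.01, 16.42, 16.15 and 16.88 in the old libraries, with 15.97, 16.61, 15.71 and 17.12 in the young ones. The old mir-125a values spanned a narrow range inside that of the young ones, and young 4 was the highest library for all 3. Unlike the let-7 copies, the mir-125b copies were not listed with the same reads: mir-125b-1 was above mir-125b-2 by 0.28 to 0.82 in every library, where their lengths alone would put it at -0.12. mir-125b-1 had 31.7% to 91.5% more reads, although the 5p sequence is the same for both. How the reads were divided between the copies is not given in the sources used here, so these 2 members are not independent measurements.

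**Figure D1:**
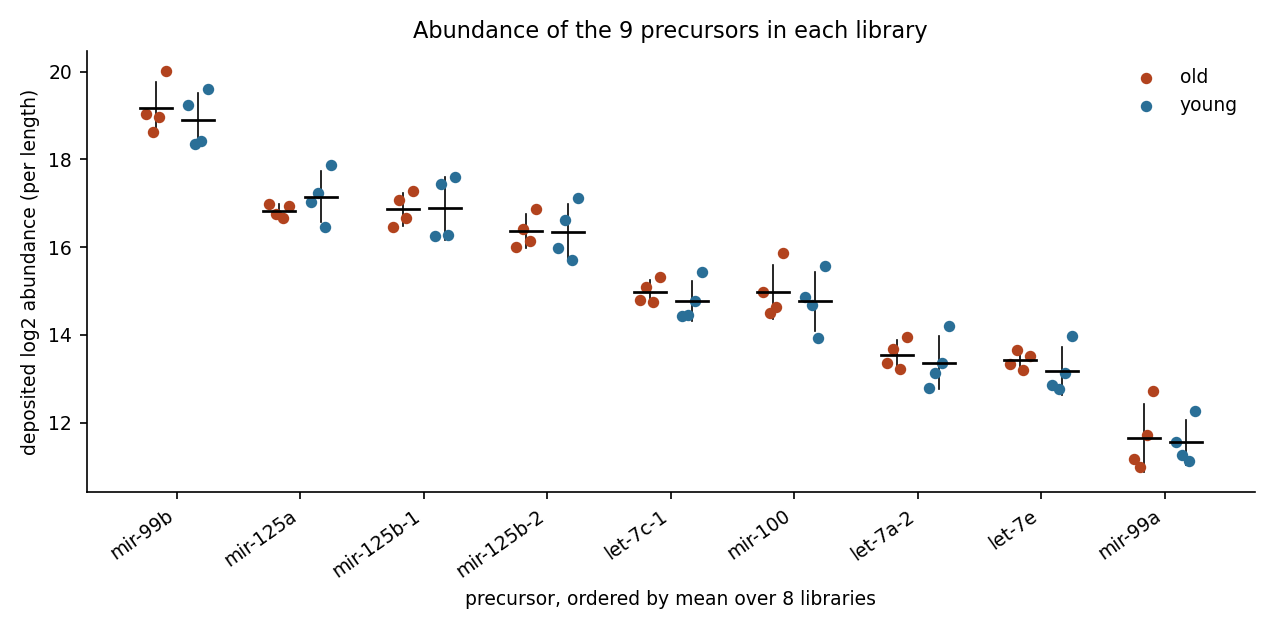
Deposited log2 abundance per length (vertical axis) of the 9 precursors, ordered by their mean over 8 libraries (horizontal axis). Points are single libraries, bars are group means and lines are 1 SD (n = 4 each); old and young points overlap for every precursor, from mir-99b at 18.36 to 20.02 down to mir-99a at 10.98 to 12.71.

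In order of mean level, mir-99b stood above mir-125a by 2.04 ± 0.55 (SD of the within-library difference, n = 8), in 8 of 8 libraries. mir-125a and mir-125b-1 were not separated, with a difference of 0.12 ± 0.41 and mir-125a higher in 4 libraries. let-7c-1 and mir-100 were not separated either, at 0.00 ± 0.49. let-7a-2 was above let-7e by 0.16 ± 0.17, in 7 of 8 libraries. The other neighbours kept their order in all 8 libraries: mir-125b-1 over mir-125b-2 by 0.52 ± 0.17, mir-125b-2 over let-7c-1 by 1.48 ± 0.36, mir-100 over let-7a-2 by 1.42 ± 0.51 and let-7e over mir-99a by 1.70 ± 0.57.

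No member differed between old and young myoblasts by more than the spread between libraries. Of the 9 members 0 passed an adjusted p of 0.05 in limma (adjusted p = 0.995 for each), and 0 of all 359 precursors compared did (0%). At an unadjusted p under 0.05 there were 0 members and 4 precursors in all (1.11%). The groups overlapped for all 9 members, and 3 of the 359 precursors had groups that did not overlap (0.836%). The largest difference was that of mir-125a, at 16.83 ± 0.15 for the old and 17.15 ± 0.58 for the young group (n = 4 each, ± SD), which gives -0.32 ± 0.32 (SE; p = 0.349 in limma and 0.343 by a two-sided exact permutation test). mir-99b measured 19.16 ± 0.60 and 18.91 ± 0.61, a difference of 0.25 with a 95% interval from -0.66 to 1.16. let-7e measured 13.43 ± 0.21 and 13.18 ± 0.55, also a difference of 0.25, with an interval from -0.50 to 0.99. Over the 9 members the intervals reached from -1.05 (mir-125a) to 1.18 (mir-100), and changes within them could not be seen here. In RNA pooled from many cells, fewer cells that make a miRNA and less of it per cell cannot be told apart. An exact permutation test of 4 against 4 libraries can give no p below 0.0286.

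The remaining differences were 0.22 for mir-100, 0.21 for let-7c-1, 0.18 for let-7a-2, 0.09 for mir-99a, 0.01 for mir-125b-2 and -0.03 for mir-125b-1. By their means 7 of the 9 members were higher in old libraries, against 46% of all 359 (54% were lower), with a median of 0.18 against -0.05. The number of members higher in old libraries was 8 after TMM or median-ratio rescaling, where mir-125b-1 turned, and 9 after quantile normalization, where mir-125a turned as well. It was 3 without old 4 and 4 without young 3, with medians of -0.07 and -0.05 against -0.16 and -0.13 over all precursors. Without young 4 it was 8, with a median of 0.43 against 0.17, and without old 3 also 8, with a median of 0.29 against -0.03. The sign of the members' median thus depended on old 4 and on young 3, while it lay above the median of all precursors with all libraries and in the 19 alternatives run. Leaving out old 4 together with young 4 gave 7 members higher in old libraries and a median of 0.20. Without these libraries the differences were 0.48 for let-7e (adjusted p = 0.901 in limma), 0.33 for let-7a-2 and 0.32 for let-7c-1, 0.20 for mir-99b and for mir-100, -0.02 for mir-99a, 0.10 for mir-125b-2, 0.07 for mir-125b-1 and -0.11 for mir-125a. The let-7 differences were thus larger and that of mir-125a smaller than with all libraries, and no member passed the test. Quantile normalization moved the median of all 359 precursors to 0.09 and that of the members to 0.17; after TMM rescaling these were 0.02 and 0.26.

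**Figure D2:**
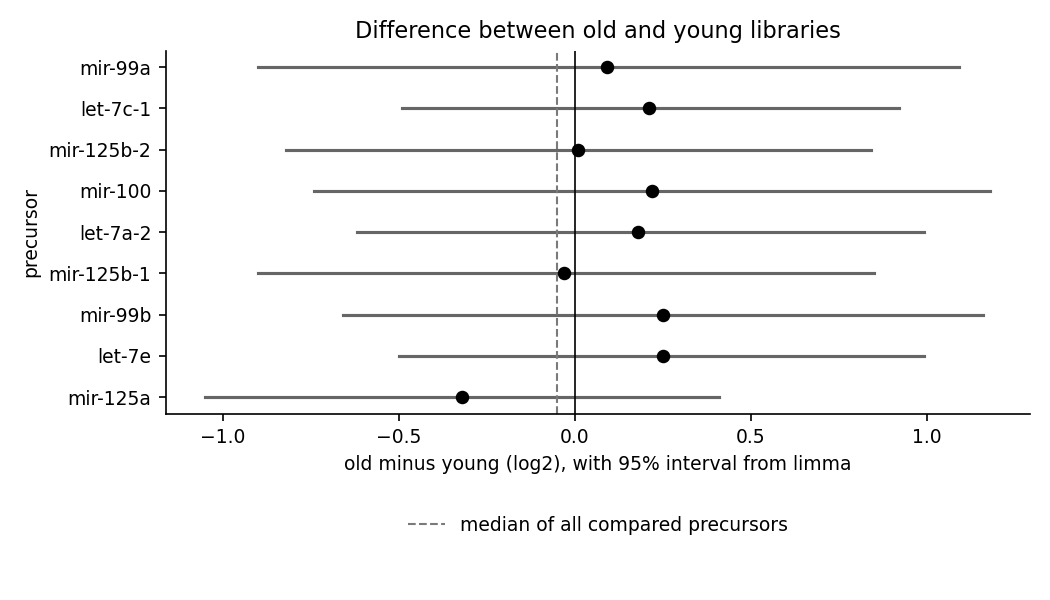
Mean log2 difference of old minus young libraries (horizontal axis) for each of the 9 precursors (vertical axis), with the 95% interval from limma; the dashed line is the median of all 359 compared precursors, at -0.05. Every interval includes 0, from mir-125a at -0.32 to mir-99b and let-7e at 0.25.

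The balance between the clusters was then compared inside each library, which takes the library scaling out of the result. None of the 9 pairs of paralogs passed the test of the within-library log2 difference between old and young libraries (two-sided exact permutation tests, raw p from 0.171 to 0.886, adjusted p = 0.886 for each over the 9 pairs). The pair with the smallest p was mir-125a against mir-125b-2. It stood at 0.98, 0.33, 0.51 and 0.05 across old 1 to old 4, while young 1 to young 4 gave 1.07, 0.62, 0.76 and 0.75, means of 0.47 ± 0.39 and 0.80 ± 0.19 (SD, n = 4 each; exact permutation p = 0.171). The old libraries ran lower on average, but old 1 lay above all young libraries except young 1. The difference of -0.33 rests partly on single libraries: it was -0.50 without old 1 (exact permutation p = 0.0286, the minimum for 3 old and 4 young libraries, adjusted p = 0.257 over the 9 pairs) and -0.19 without old 4. Without old 4 and young 4 together it was -0.21, and over the 9 pairs the exact permutation p was then 0.1 to 1, where 3 against 3 libraries can give no less than 0.1.

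The miR-99/100 paralogs were the most unequal. mir-99b exceeded mir-99a by 7.10 to 7.86 in the 8 libraries, a mean ratio of 173-fold, and mir-100 by 3.67 to 4.50, a mean of 17.9-fold. mir-99a was below mir-100 by a log2 difference of -3.79 to -2.81. The let-7 paralogs kept tighter ratios: let-7c-1 exceeded let-7a-2 by 1.22 to 1.63 and let-7e lay at -1.79 to -1.44 relative to let-7c-1. let-7e against let-7a-2 was between -0.42 and 0.05. The let-7e level thus came close to that listed for let-7a-2, whose reads include those of let-7a-1. In the linear values summed over the 9 members, the mir-99b cluster held 71.4 ± 5.18% of the old and 69.7 ± 7.90% of the young totals (n = 4 each, ± SD), the mir-100 cluster 16.5 ± 3.06% and 17.8 ± 5.62%, and the mir-99a cluster 12.1 ± 2.15% and 12.5 ± 2.39%. mir-125b reads are counted under both copies in these sums as far as the file lists them so. The let-7c-1 and let-7a-2 values in them include reads shared with copies outside the clusters.

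**Figure D3:**
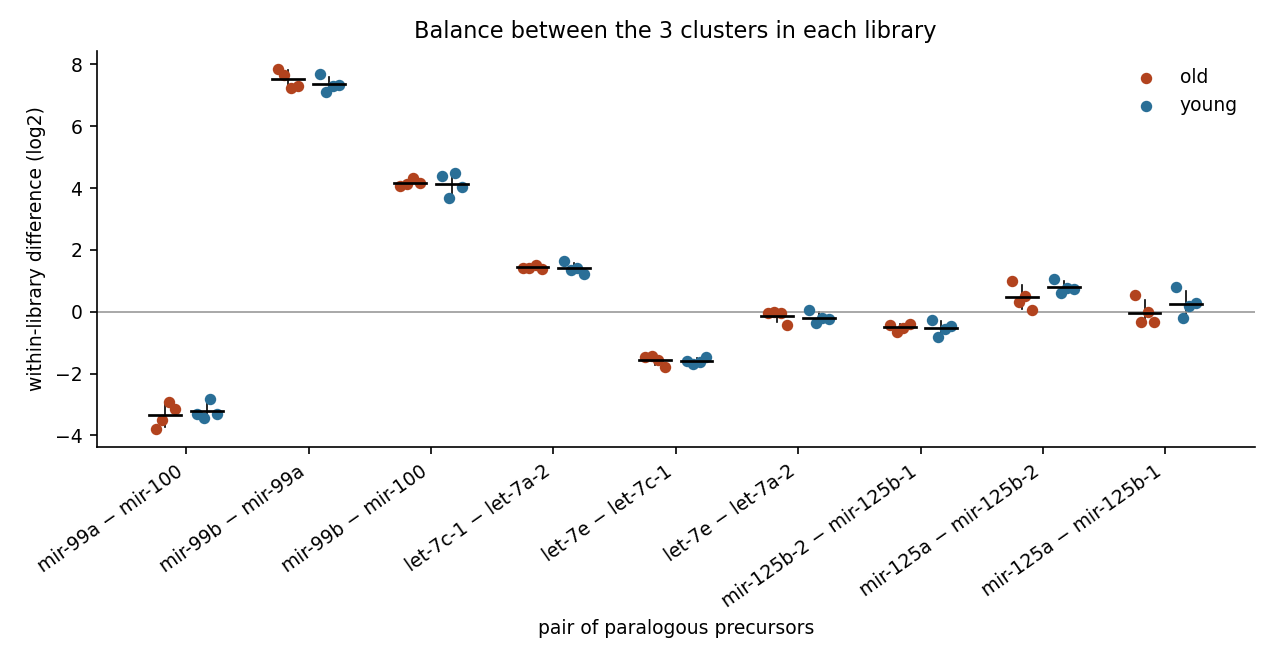
Within-library log2 difference (vertical axis) for the 9 pairs of paralogous precursors (horizontal axis). Points are single libraries, bars are group means and lines are 1 SD (n = 4 each); old and young libraries overlap for each pair, from 7.10 to 7.86 for mir-99b over mir-99a to -3.79 to -2.81 for mir-99a over mir-100.

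Members of a cluster differed widely in level although they can share a primary transcript. In the mir-99b cluster, mir-99b exceeded mir-125a by 1.13 to 3.09 and let-7e by 4.97 to 6.49, a mean of 53.2-fold. In the mir-100 cluster mir-125b-1 was the highest, mir-100 lay at -2.74 to -1.39 relative to it and let-7a-2 at -4.31 to -2.93. In the mir-99a cluster mir-125b-2 was the highest, let-7c-1 lay at -2.15 to -0.94 and mir-99a at -5.44 to -4.17. The miR-99/100 member was therefore the highest of its cluster on chromosome 17, the middle one on chromosome 9 and the lowest on chromosome 16, in all 8 libraries. let-7 ranked last in the clusters on chromosomes 17 and 9. The let-7c-1 and let-7a-2 ranks rest on reads shared with copies elsewhere.

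Over the libraries the members kept step with their seed paralogs more closely than with their cluster neighbours, as a description of these values. The SD of the within-library difference was 0.12 to 0.17 for the 3 let-7 pairs, 0.26 to 0.32 for the miR-99/100 pairs and 0.17 to 0.41 for the miR-125 pairs. For the 9 pairs of cluster neighbours it was 0.36 to 0.55, and for the 18 pairs that share neither family nor cluster 0.34 to 0.67. Without old 4 and young 4 the medians were 0.28 for paralogs, 0.48 for cluster neighbours and 0.51 for the rest, against 0.26, 0.49 and 0.49 with them. The listed spread of 2 cluster neighbours was thus like that of unrelated members. In the mir-99a and mir-100 clusters each neighbour pair includes let-7c-1, let-7a-2 or a mir-125b copy, whose reads are or may be shared with other loci. For those clusters the values do not show how neighbouring loci vary together. None of the mir-99b cluster members is such a copy, and its 3 pairs had SDs of 0.47 to 0.55. let-7c-1 and let-7e on chromosomes 16 and 17, whose mature forms differ by U9G and G19A, are an example of paralogs that kept step. Their Pearson correlation over the 8 libraries was r = 0.95 (exact permutation p = 0.000446, adjusted p = 0.00685 over 36 pairs) and Spearman's rho 0.93 (exact permutation p = 0.00223, adjusted p = 0.0201), and r was 0.98 without old 4 and young 4, the farthest from the median. At the other end, let-7e and mir-125a, whose hairpins start 460 bases apart, had the lowest r of the 9 neighbour pairs, r = 0.37 (exact permutation p = 0.367, adjusted p = 0.389) and rho = 0.05 (exact permutation p = 0.935, adjusted p = 0.935), and r was -0.07 without young 2 and young 4 and -0.51 without old 4 and young 4.

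Among the 36 pairs of members, 7 of the 9 paralog pairs, 0 of the 9 neighbour pairs and 0 of the 18 others passed an adjusted p of 0.05 for Pearson's r (exact permutation tests over 8 libraries). For Spearman's rho these counts were 4, 0 and 0, the 4 being the 3 let-7 pairs and the mir-125b copies, while the miR-99/100 pairs had adjusted p = 0.111 to 0.236. Over the 8 libraries r was 0.65 to 0.98 for paralogs, with a median of 0.91, and 0.37 to 0.68 for neighbours, with a median of 0.59, so that the ranges met: mir-125a and mir-125b-1, at 0.65, lay below the highest neighbour pairs. Over the 6 libraries without old 4 and young 4, r was 0.36 to 0.98 for paralogs and -0.56 to 0.29 for neighbours, with medians of 0.66 and 0.01, against a median of 0.10 for all pairs of the 359 precursors. The relation of mir-99a to mir-100 rests on old 4 and young 4, since r went from 0.86 to 0.36 without them. Paralogs have nearly the same letters, and mir-125b-1 and mir-125b-2 the same 5p letters. All neighbour pairs outside the mir-99b cluster include let-7c-1, let-7a-2 or a mir-125b copy. Their correlations therefore do not show how neighbouring loci vary together. The part in all these values of reads assigned to the wrong paralog was not tested.

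Old 4 and young 4 were the 2 highest libraries for 6 of the 9 members (66.7%), and for 120 of all 359 precursors (33.4%). Young 4 was higher than young 1 to young 3 on average by 0.88 to 1.12 in all 9 members, against a median of 0.82 over all 359, so that it was raised about evenly. In old 4 the miR-99/100 family stood out. This library was higher than old 1 to old 3 on average by 1.42 for mir-99a, 1.16 for mir-100 and 1.14 for mir-99b, by 0.44 for let-7c-1, 0.53 for let-7a-2 and 0.14 for let-7e, and by 0.69, 0.54 and 0.13 for mir-125b-2, mir-125b-1 and mir-125a, against a median of 0.39 over all 359. After median-ratio rescaling old 4 still lay above the 8-library mean by 0.77, 0.64 and 0.64 in mir-99a, mir-100 and mir-99b, and at -0.12 and -0.41 in let-7e and mir-125a. After the same rescaling young 4 lay between -0.01 and 0.32 in all 9 members. The share of mir-486, the most abundant muscle miRNA, was 16.4% of the summed linear values in young 4, 27.9% in young 2, 32.6% in old 4 and 36.1% to 52.6% in the other 5 libraries. Relative to their own 8-library means, before rescaling, the members lay from 0.55 (let-7c-1) to 0.88 (mir-125a) in young 4. In old 4 they lay from -0.06 (mir-125a) to 1.11 (mir-99a), and in young 2 from -0.68 (mir-99b) to 0.55 (mir-125b-1). The part of mir-486 in the members' values was not tested.

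**Figure D4:**
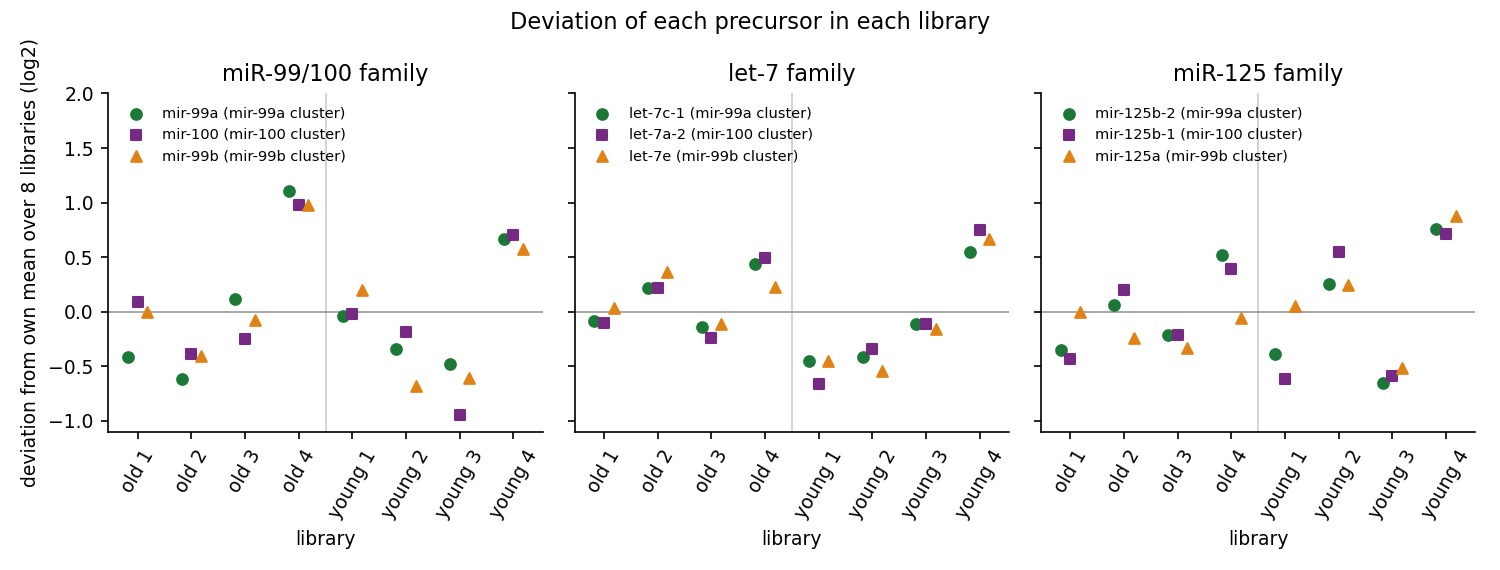
Deviation of each precursor from its own mean over 8 libraries (log2, vertical axis) in each library (horizontal axis), in a panel for each seed family, with marker and colour for the cluster. The markers lie closest together in the let-7 panel. In the miR-125 panel mir-125a departs from mir-125b-1 and mir-125b-2 in several libraries, such as old 4 (-0.06 against 0.39 and 0.52) and young 1 (0.05 against -0.62 and -0.39). Old 4 stands highest in the miR-99/100 panel and young 4 in the let-7 and miR-125 panels.

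Other precursors with the same seeds were found from the RefSeq mature sequences. No other precursor measured carries the miR-99/100 seed. The let-7 seed was found in 11 others, of which 10 were compared: in limma 0 of them were called (adjusted p = 0.995), 6 had higher and 4 lower means in old libraries, with a median difference of 0.01. These 6 include let-7a-1 (0.18) and let-7c-2 (0.21). In effect both list the reads of the members let-7a-2 and let-7c-1 again and are not separate from them. let-7b was the most abundant at 15.59 ± 0.30 in old and 15.23 ± 0.55 in young libraries, followed by let-7c-2 at 14.98 ± 0.27 and 14.77 ± 0.47, let-7d at 13.88 ± 0.33 and 13.88 ± 0.45 and let-7i at 13.55 ± 0.23 and 13.77 ± 0.59 (n = 4 each, ± SD). With copies that repeat each other's reads counted once, the 3 let-7 members held 35.6% to 41.5% of the summed linear values with this seed, and let-7b alone 26.7% to 39.9%. Of the members let-7c-1 held the most of it, 20.9% to 24.4%, with 7.90% to 9.94% for let-7a-2 and 6.44% to 8.74% for let-7e. Reads of let-7c-2 and let-7a-1 were counted under let-7c-1 and let-7a-2 here. How much of these shares comes from the clustered loci cannot be read.

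The miR-125 seed was found in 3 other precursors, of which mir-351, an X-linked precursor, was compared and mir-6367 and mir-6394 were at 0 in all libraries. mir-351 stood at 17.45, 17.26, 17.43 and 16.31 across old 1 to old 4, while young 1 to young 4 gave 17.58, 18.66, 17.90 and 15.50, and its groups differed by -0.30 ± 0.62 (SE; adjusted p = 0.995 in limma). It was lowest in young 4 and old 4, where mir-125b-2 was highest. Its share of the summed linear values with the miR-125 seed was 52.2% in young 3 and 7.41% in young 4, and that of the 3 clustered members together was 47.8% and 92.6%. The highest and the lowest share were thus both seen in young libraries.

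mir-10a and mir-10b, Hox cluster miRNAs that resemble miR-99/100 in sequence but have another seed, varied far more between libraries than they did. mir-10b stood at 8.32, 10.93, 10.27 and 14.21 across old 1 to old 4, while young 1 to young 4 gave 4.78, 7.29, 12.82 and 13.92. mir-10a was found at 4.58, 5.70, 9.88 and 5.90 in the old libraries, with 5.75, 10.44, 7.44 and 6.35 in the young ones. mir-10b was high in old 4 and young 4, as the miR-99/100 members were, and in young 3, where mir-100 was lowest. Neither passed the test between the groups (limma, adjusted p = 0.995).

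The precursors most like each cluster were taken by Pearson's r with the mean of its 3 members over the 8 libraries, among 337 precursors outside these families. Being the highest of many, these values carry no test. For the mir-99a cluster they were mir-872 (r = 0.97, rho = 0.90), mir-3074-2 and mir-24-2 (r = 0.96 and rho = 0.90 for each). mir-3074-2 and mir-24-2 also had the same SD over the libraries (0.48), and whether they are separate measurements was not tested. For the mir-100 cluster they were mir-29a (r = 0.97, rho = 0.90), mir-361 (r = 0.97, rho = 0.93) and mir-130b (r = 0.96, rho = 0.93). For the mir-99b cluster they were mir-342 (r = 0.95, rho = 0.83), mir-700 (r = 0.93, rho = 0.83) and mir-152 (r = 0.93, rho = 0.95). All values of a library share its scaling, and old 4 and young 4 weigh on all of these correlations.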

How the data were processed

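By the numbers in the labels, each library was taken as small RNA from the myoblasts of 1 mouse. The authors deposited a normalized log2 value for each of 1181 miRNA precursors and 8 libraries, with 2 decimals and nothing below 0. BWA and mm10 appear in the submitters' processing notes, with no version or role. How reads were trimmed, counted and assigned when they fitted several precursors is not given in these sources. Low values times precursor length fell on whole multiples of a step (110 to 216 values per library of up to 12 reads, 100% within 0.1 of a read), as RPKM values do, which gave the library sizes; 1175 precursors had a RefSeq length.

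Precursors reaching a linear value of 10 or more in 4 or more libraries, 359 in all, were fitted by limma 3.58.1 (R 4.3.3, eBayes with trend) on the deposited log2 scale, with Benjamini-Hochberg adjustment and a threshold of 0.05. Within-library differences and correlations were tested by exact permutation in Python 3.11.15 with numpy 2.4.6. Seed sharing used RefSeq mature sequences, and overlapping genes are from GENCODE. The fit was tested on simulated data. Named beside the members were their seed relatives (up to 4 per seed by mean), mir-10a, mir-10b, the 3 precursors most like each cluster and cell type markers. The members and lists were chosen with earlier results of these data known. p-values measure the spread between libraries. Alternatives were log2 of the value plus 1 or plus 10, dropping the filter or asking for a mean of 100, rescaling by median ratio, TMM (trimming 30% of ratios and 5% of levels) or quantiles, no trend, array weights, a replicate block and leaving out each library. Leaving out old 4 together with young 4 was added after seeing the data.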

Additional observations from a re-analysis of the deposited data

Results flagged for a closer look

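In the old libraries the within-library log2 difference of let-7e and let-7a-2 was -0.03, -0.02 and -0.03 in old 1 to old 3 and -0.42 in old 4. The gap of old 4 to its nearest neighbour was 0.975 of the group's range, above Dixon's 95% critical value for 4 samples. It was the only case among 36 groups of 4 values examined (9 precursors and 9 paralog pairs, in old and young). Chance flags about 1 group in 20, so 1 in 36 is no more than chance would give. The pairs reuse the 9 precursors, so the groups are not independent.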

How the results depend on the processing

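The count of 0 calls held in all 19 alternatives. At an unadjusted p under 0.05 limma had 0 members in each of them, while the count over all precursors, 4 with all libraries, was 36 without old 3, 27 without young 4, 27 with array weights, 39 with the replicate block, 19 with no filter and 0 with a mean of at least 100. With the replicate number as a block limma also called 0 precursors, and the smallest p of a member was 0.267. Same-numbered libraries correlated at -0.06, 0.43, 0.66 and 0.58 in their deviations. Libraries with unlike numbers ran from -0.70 (old 3 with young 4) to 0.45 (old 3 with young 1). The labels tie no shared source to a number and number 1 showed no correlation, so the numbers were not taken as pairs. A source shared by number was not tested. At the same number mir-125a minus mir-125b-2, and mir-125a minus mir-125b-1, were lower in old in 4 of 4 (exact permutation p = 0.125 for each with the replicate block, the smallest possible, adjusted p = 0.562). Some differences changed sign. That of mir-125b-1 was 0.05 with TMM, 0.0075 with median-ratio rescaling, 0.18 with quantile normalization and 0.10 with array weights, and that of mir-125a was 0.0086 with quantile normalization and -0.07 with array weights, against -0.32. Quantile normalization put let-7e minus let-7a-2 at -0.05 and let-7e minus let-7c-1 at -0.15. Without both old 4 and young 4, mir-125b-1 was at 0.07, mir-99a at -0.02, let-7c-1 minus let-7a-2 at -0.0067 and mir-99b minus mir-100 at -0.0033. The cause was not tested. With each library left out in turn the calls stayed at 0 and the differences ranged from -0.26 to 0.33 for mir-99a, 0.10 to 0.43 for let-7c-1, -0.20 to 0.27 for mir-125b-2, -0.07 to 0.49 for mir-100, -0.0075 to 0.46 for let-7a-2, -0.24 to 0.21 for mir-125b-1, -0.03 to 0.49 for mir-99b, 0.11 to 0.51 for let-7e and -0.55 to -0.08 for mir-125a. For the pairs that turned in sign they ranged from -0.27 to 0.02 for mir-99a minus mir-100, -0.13 to 0.15 for mir-99b minus mir-100, -0.03 to 0.11 for let-7c-1 minus let-7a-2, -0.0075 to 0.11 for let-7e minus let-7c-1 and -0.06 to 0.12 for mir-125b-2 minus mir-125b-1, and for the others from 0.04 to 0.26 for mir-99b minus mir-99a, 0.0083 to 0.16 for let-7e minus let-7a-2, -0.50 to -0.19 for mir-125a minus mir-125b-2 and -0.48 to -0.12 for mir-125a minus mir-125b-1. With 3410 reads or more per member and library, counting error was small beside the spread between libraries.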
